A study of Oryza sativa with 60 samples.

Results

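The mRNA of rice anthers 1.8 mm long was compared with that of anthers 1.6 mm long, using the 3 libraries whose titles give each length. These 6 libraries belong to a series of 60, of which 30 are mRNA libraries (10 lengths between 0.4 and 2.5 mm, each with 3 replicates that the series' design calls biological). All samples are anthers of the wild-type cultivar Kitaake, a japonica rice, from greenhouse plants, so that length is the only labelled difference between the groups. Per the labels, each RNA sample came from a pool of 20 to 30 anthers, and the labels tie no length to a stage of development. Polyadenylated RNA was sequenced with a kit that keeps the strand. Levels are FPKM, read fragments scaled by transcript length and by the mapped fragments of a library, summed over the transcript entries of each gene ID. Of 35594 gene IDs, the 26091 with at least 1 FPKM in at least 3 of the 30 mRNA libraries were tested.

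The anther holds the cells that pass through meiosis and become pollen, surrounded by wall layers. The innermost layer, the tapetum, feeds the developing microspores, supplies material for the pollen wall and then degenerates. Late in development the young pollen divides, stores starch and builds up the transcripts used at germination, while the outer wall prepares to open. In whole anthers, fewer cells of a type and less RNA per cell cannot be told apart, and each value below is an average over all these cells. The gene IDs are those of the Kitaake annotation and 0 of them occur in the reference table used for names. Genes are therefore described by their levels, the marker lists of tapetum, meiotic cells, pollen, green tissue and wall could not be matched, and the labelled tissue could not be checked against markers. The build of the genome was not given in the sources used here.

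The 6 libraries were alike in gross composition. Between 20380 and 20773 genes reached 1 FPKM in each (17391 to 21213 over all 30), and the 1000 most abundant genes held 46.1% to 47.8% of the FPKM. Across genes, log2 levels correlated at 0.985 to 0.989 within 1.6 mm, at 0.967 to 0.978 within 1.8 mm and at 0.947 to 0.977 between them. This is a description over the 26091 tested genes, which are not independent replicates. The median gene had an SD of 0.137 (log2, n = 3) at 1.6 mm and 0.208 at 1.8 mm, and the other 8 lengths lay between 0.194 and 0.373. How deeply each library was sequenced is unknown.

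The names under which the libraries were deposited carry a plain number and an S number, whose meanings are not given. The plain numbers are 31, 36 and 40 at 1.6 mm and 10, 11 and 13 at 1.8 mm, and 2.0 mm has 10, 11 and 13 as well. All 3 libraries of 1.6 mm have an S number of 22 or above (S26, S27 and S30), as do 6 libraries of 0.4, 0.6, 0.8 and 1.2 mm, whereas those of 1.8 mm have S21, S1 and S17. Within this step alone these numbers and the length cannot be told apart. The other 4 lengths hold libraries on both sides of S22, so a term for it could be fitted, and its values are given beside the results.

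From 1.6 to 1.8 mm, 183 genes rose and 110 fell. The genes that rose had a median log2 fold change of 1.56, with median levels of 2.8 FPKM at 1.6 mm and 11.7 FPKM at 1.8 mm. Those that fell had a median of -1.31, with 7.06 FPKM at 1.6 mm and 2.18 FPKM at 1.8 mm. Calls needed a limma p, adjusted over all tested genes by Benjamini-Hochberg, under 0.05 and a difference of 1 or more in log2(FPKM + 1). The 293 calls were 1.12% of the tested genes, 0.701% higher and 0.422% lower. The 3 libraries of each length did not overlap for 282 of the 293, against 28.8% of all tested genes. This is largely built in, since a call needs a large difference between these same libraries. The log2 fold change was 2 or more for 43 of the genes that rose, and -2 or less for 12 of those that fell.

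The number of calls changed when single libraries were left out and when a term for the S number was fitted. Leaving out 1.6 mm replicate 2 gave 163 calls, leaving out 1.6 mm replicate 3 gave 107, and leaving out 1.8 mm replicate 2 gave 99. The genes that rose numbered 103, 68 and 58 in these fits. The genes that fell numbered 60, 39 and 41, and 54 without 1.6 mm replicate 1. With a term for S22 or above, 56 genes were called, 53 of them among the 293. All 293 kept their direction in that fit, while their median absolute log2 fold change went from 1.45 to 1.32 and their median SE from 0.3 to 0.362. For the term itself, 4 genes were called higher in libraries with S22 or above and 0 lower. Within 0.4, 0.6, 0.8 and 1.2 mm, the genes that rose at the step had median log2 differences of -0.04, 0, -0.21 and -0.39 between libraries with S22 or above and the others. The genes that fell had medians of 0.06, 0, 0 and 0.22, and all tested genes 0.02, -0.02, -0.15 and 0.02. The part of the S number in the calls beyond this term was not tested.

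**Figure D1:**
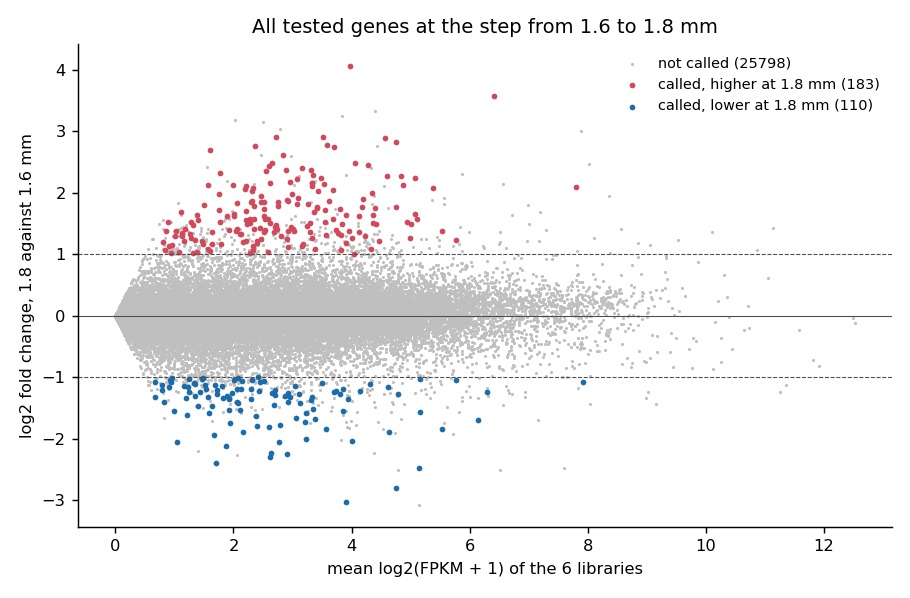
Log2 fold change from 1.6 to 1.8 mm on log2(FPKM + 1) (y axis) against the mean level of the 6 libraries (x axis), 1 point per tested gene. Red points are the 183 genes called higher at 1.8 mm and blue points the 110 called lower. The dashed lines mark a log2 fold change of 1 and -1, between which most of the 25798 uncalled genes lie.

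The step was small beside the others. Among the 9 steps between adjacent lengths it had the fewest calls, against 5402 for the step into 1.6 mm, 1779 for the step out of 1.8 mm and 539 to 7500 over the other 8. These counts come from 1 fit, and the difference between them was not tested. The quartiles of the log2 fold change over all tested genes were -0.19 and 0.21, with a median of 0. For 18846 genes (72.2%) the whole 95% interval of the log2 fold change lay between -1 and 1. The other genes had wider intervals or larger differences, so likeness cannot be read from the lack of a call.

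Calls came at every level of abundance. Under a mean of 1 FPKM over the 30 libraries, 16 genes rose and 23 fell (1.14% of 3432). Among genes with a mean of 1 to 10 FPKM, 94 rose and 60 fell (1.26% of 12253). Among those of 10 to 100 FPKM, 66 rose and 26 fell (0.962% of 9561). Of the 845 genes of 100 FPKM and more, 7 rose and 1 fell, and for 52.2% of them the interval lay within -1 to 1. No tested gene was listed at 0 in every library of 1 length and at 1 FPKM or more in every library of the other, in either direction.

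Among called genes with at least 10 FPKM in the higher length and no overlap, the gene with the largest rise was OsKitaake12g011600.v3.1. Its levels were 15.7, 0.738 and 0.94 FPKM at 1.6 mm and 22.5, 79.6 and 138 FPKM at 1.8 mm. The groups did not overlap, but 1.6 mm replicate 1 came close to 1.8 mm replicate 1. The log2 fold change was 4.06 ± 0.861 (SE, adjusted p = 0.0116, limma). At 2.0 mm the gene reached 2148, 1621 and 1406 FPKM and at 2.5 mm 1052, 1067 and 2165 FPKM. Up to 1.4 mm every library but 1 was at or below 6.51 FPKM, and that library, 1.2 mm replicate 1, had 33.9 FPKM. The 1.8 mm libraries were all far below those of 2.0 and 2.5 mm, but 1.8 mm replicate 1 was below 1.2 mm replicate 1.

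OsKitaake10g067000.v3.1 had a similar course. It had 63.2, 10.3 and 19.4 FPKM at 1.6 mm and 218, 570 and 202 FPKM at 1.8 mm. All 3 libraries of 1.8 mm were above all 3 of 1.6 mm, with a log2 fold change of 3.58 ± 0.722 (SE, adjusted p = 0.00832, limma). At 2.0 mm it had 1236, 1671 and 1212 FPKM. Before 1.6 mm its highest value was again in 1.2 mm replicate 1, at 15.3 FPKM, while 1.4 mm had 0.932, 0.562 and 3.9 FPKM. Between 1.4 and 2.0 mm its log2 fold change was 9.11 and that of OsKitaake12g011600.v3.1 was 8.87. These lengths entered the step only through the estimate of the spread that all 30 libraries share.

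Among called genes under the same limits, the largest fall was that of OsKitaake01g213000.v3.1. Its levels were 38.8, 40.9 and 45.5 FPKM at 1.6 mm and 5.67, 1.82 and 6.67 FPKM at 1.8 mm. The 3 libraries of 1.6 mm lay close together and far above those of 1.8 mm, with a log2 fold change of -3.02 ± 0.663 (SE, adjusted p = 0.0155, limma). The gene had a narrow window of expression. It was at or below 0.562 FPKM in all libraries up to 1.0 mm, varied from 0.164 to 29.1 FPKM at 1.2 mm and reached 47.7, 262 and 89.1 FPKM at 1.4 mm. By 2.5 mm it was at or below 0.374 FPKM.

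OsKitaake02g248700.v3.1 instead was present at every earlier length, with means that were higher at 1.2 and 1.4 mm than at 0.4 mm. It had a mean of 19.7 FPKM ± 7.75 (SD, n = 3) at 0.4 mm, 90 FPKM ± 41.8 at 1.2 mm and 83.8 FPKM ± 14.4 at 1.4 mm. At 1.6 mm it had 65.3, 57.7 and 90.4 FPKM, at 1.8 mm 14, 3.61 and 14.3 FPKM and at 2.0 mm 0.276, 0.75 and 0.0454 FPKM. The 3 lengths did not overlap, and the log2 fold change at the step was -2.80 ± 0.379 (SE, adjusted p = 0.000125, limma). It fell further outside the step, with a log2 fold change of -5.98 from 1.4 to 2.0 mm.

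Of these 4 genes, OsKitaake02g248700.v3.1 alone kept its call with the term for S22 or above, at a log2 fold change of -2.17 (adjusted p = 0.0282, limma). The values for OsKitaake01g213000.v3.1, OsKitaake10g067000.v3.1 and OsKitaake12g011600.v3.1 were then -2.19, 3.06 and 3.69, with adjusted p of 0.378, 0.213 and 0.213. These 3 genes also lost their call with a pseudocount of 0.1 and when 1.6 mm replicate 2, 1.6 mm replicate 3 or 1.8 mm replicate 2 was left out, while their log2 fold changes stayed between -3.31 and -2.58, 3.02 and 3.64, and 3.49 and 4.71. OsKitaake12g011600.v3.1 lost it without 1.8 mm replicate 3 as well, and all 4 genes in a fit on the 6 libraries alone. When genes were also filtered on these 6 libraries, all 4 kept their call, with adjusted p of 0.00963 to 0.0443 (limma). The genes were taken by size of change from 100 that rose and 45 that fell with at least 10 FPKM in the higher length and no overlap.

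**Figure D2:**
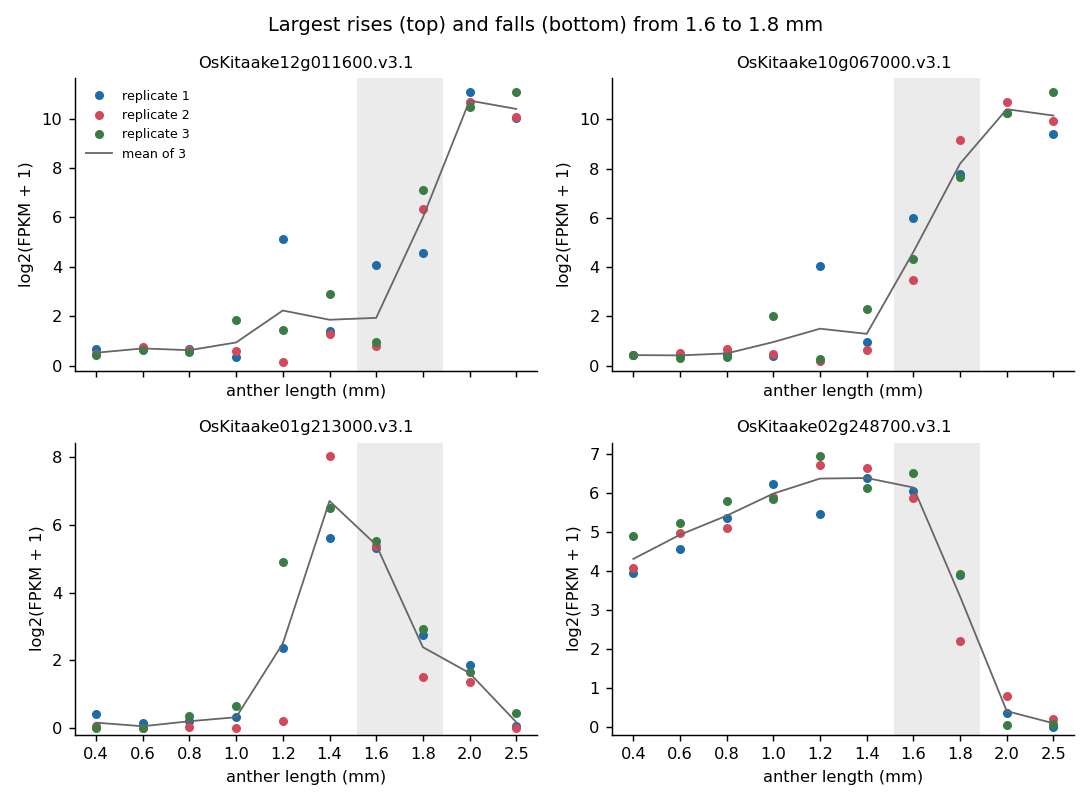
Level of the 4 named genes in each of the 30 mRNA libraries as log2(FPKM + 1) (y axis) against anther length, with lengths equally spaced (x axis). Points are single libraries and lines join the means of the 3 log2 values. The shaded band holds 1.6 and 1.8 mm, where the upper genes climb towards 2.0 mm and the lower genes drop.

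The genes that rose fell into separate courses over the other 8 lengths. Of the 183, 100 (54.6%) had their highest mean among the other lengths at 2.0 or 2.5 mm, 73 (39.9%) at 0.4 to 1.0 mm and 10 (5.46%) at 1.2 or 1.4 mm. Over all tested genes these shares were 33.1%, 50.1% and 16.8%. The 3 classes are called late, early and middle genes below. The values at 1.6 and 1.8 mm chose the genes, and those at the other lengths set the class, so both are given as a description, with no test. The class counts moved with single libraries. Leaving out 1.8 mm replicate 1 gave 33 early and 123 late genes, leaving out 1.8 mm replicate 2 gave 18 and 35, leaving out 1.6 mm replicate 2 gave 36 and 59, and leaving out 1.6 mm replicate 3 gave 25 and 38. A pseudocount of 0.1 gave 34 early and 34 late genes, so late genes did not outnumber early ones there.

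The late genes, high at 2.0 or 2.5 mm by definition, were already above their 1.4 mm level at 1.6 mm by the median. Their median level climbed from 0.358 FPKM at 1.4 mm through 2.78 FPKM at 1.6 mm and 12 FPKM at 1.8 mm to 23.1 FPKM at 2.0 mm, and was 19.9 FPKM at 2.5 mm. Of the 100, 79 had a higher mean at 2.0 than at 1.8 mm, and 39 were at least 10 times higher at 2.0 than at 1.6 mm. Over all 26091 tested genes these counts were 11838 and 1040. The late genes held 0.0903% to 0.168% of the FPKM of a library at 1.6 mm, 0.394% to 0.646% at 1.8 mm and 1.53% to 2.11% at 2.0 mm. These 3 lengths did not overlap. The shares are sums in which the most abundant genes weigh most. At 2.0 mm the highest late gene, OsKitaake12g011600.v3.1 named above, had a mean of 1725 FPKM against the median of 23.1 FPKM. The most abundant late gene reached a mean of 5649 FPKM at 2.5 mm.

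The early genes that rose were high again at 1.8 mm and low on either side of it. Their median level went from 15 FPKM at 0.4 mm to 0.932 FPKM at 1.4 mm, was 2.95 FPKM at 1.6 mm and 12.2 FPKM at 1.8 mm, and was again 2.01 FPKM at 2.0 mm and 1.39 FPKM at 2.5 mm. By library the medians were 3.45, 2.35 and 2.36 FPKM at 1.6 mm, 14.3, 13.9 and 7.76 FPKM at 1.8 mm and 1.57, 1.67 and 2.61 FPKM at 2.0 mm. All 3 libraries of 1.8 mm stood above those of both neighbouring lengths, replicate 3 least so. Each of the 73 genes had a higher mean at 1.8 mm than at 1.6 and 2.0 mm, and 57 were lower at 2.0 than at 1.6 mm. Over all 26091 tested genes these counts were 6911 and 13739. The call itself required a higher level at 1.8 than at 1.6 mm. The class also leaves out genes that were highest at 2.0 or 2.5 mm among the other lengths. With 1.8 mm high by choice as well, a lower level at 2.0 mm is partly built in. The medians of this class were also compared across S22 at the lengths that hold libraries on both sides. At 0.8 mm its median was 7.87 FPKM in the library with S22 or above, against 18.9 and 18.2 FPKM in the others. At 1.2 mm it was 1.75 FPKM against 2.69 and 4.9 FPKM. At 0.4 mm it was 15.5 and 12.4 FPKM against 17.8 FPKM, and at 0.6 mm 13.1 and 12.2 FPKM against 13.5 FPKM. At these 4 lengths the libraries with S22 or above had the lower medians, with 1 or 2 libraries on each side. At 1.4 and 2.0 mm no library has S22 or above, so this comparison could not be made there. The cause of these differences was not tested. With the term for S22 or above, the genes called higher were 4 early, 4 middle and 23 late ones.

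Most genes that fell had their peak at 1.6 mm, where the choice required a level above that of 1.8 mm. Of the 110, 65 had their highest mean of all 10 lengths there, 109 were lower at 2.0 than at 1.6 mm, and 81 were under 1 FPKM at 2.5 mm. Over all 26091 tested genes these counts were 2217, 13739 and 7251. By the other 8 lengths, 47 (42.7%) were middle, 42 (38.2%) early and 21 (19.1%) late genes. The order of these counts was not stable: with the term for S22 or above they were 6 middle, 10 early and 9 late genes, and leaving out 1.8 mm replicate 1 gave 41, 56 and 21. Leaving out 1.6 mm replicate 1 gave 21, 16 and 17, 1.6 mm replicate 2 gave 26, 15 and 19, 1.6 mm replicate 3 gave 18, 10 and 11, and 1.8 mm replicate 2 gave 18, 11 and 12. The middle genes had a median of 0.775 FPKM at 0.4 mm and 5.08 FPKM at 1.4 mm, which went to 9.38 FPKM at 1.6 mm, 2.81 FPKM at 1.8 mm and 0.4 FPKM at 2.0 mm. The early genes started from 14.5 FPKM at 0.4 mm, had 2.11 FPKM at 1.4 mm, and then 6.74 FPKM at 1.6 mm and 1.97 FPKM at 1.8 mm. Of the 21 late genes 20 were highest at 1.6 mm, with a median of 5.09 FPKM there against 0.351 FPKM at 1.4 mm, 1.68 FPKM at 1.8 mm and 0.898 FPKM at 2.0 mm.

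**Figure D3:**
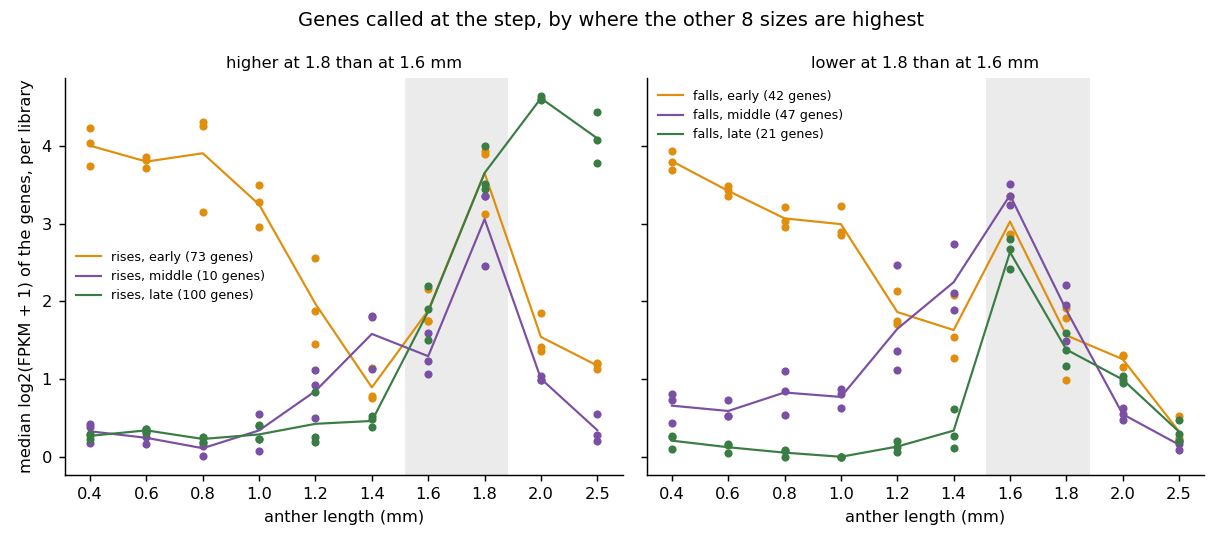
Median log2(FPKM + 1) in each library (y axis) against anther length, with lengths equally spaced (x axis), for the genes that rose (left) and fell (right) from 1.6 to 1.8 mm. Colours give the class by the highest of the other 8 lengths, points are libraries and lines join the means of 3. Early and late genes that rose meet at 1.8 mm and part at 2.0 mm, and the genes that fell peak at 1.6 mm apart from the early ones, which are higher at 0.4 mm.

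The libraries of 1.4 and 2.0 mm lie on either side of the step. They entered its calls only through the estimate of the spread that all 30 libraries share. A small spread favours calls at the step and between these lengths alike, so the calls are not independent. Of the 183 genes that rose at the step, 111 (60.7%) were higher at 2.0 than at 1.4 mm and 2 were lower, where 18.8% of all tested genes were called higher and 11.9% lower. Of the 110 that fell, 42 (38.2%) were lower at 2.0 than at 1.4 mm and 15 were higher. Both shares in the direction of the step were above those of all tested genes, and 70 of the genes that rose and 53 of those that fell were called neither way. Of all calls between these lengths 61.3% were higher, and 51.3% with quantile normalization.

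A comparison of 1.4 with 0.4 mm, which uses the libraries of 1.4 mm and the shared spread again, described the earlier course. Of the 183 genes that rose, 78 (42.6%) had fallen between 0.4 and 1.4 mm and 7 had risen, where 18.5% of all tested genes were called lower and 11.0% higher. Of the 110 that fell at the step, 27 had risen and 23 had fallen over the same lengths. A share of the genes that rose at 1.8 mm had thus gone down earlier in anther growth.

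Levels at 1.8 mm were also set against the mean of both neighbouring lengths, 1.6 and 2.0 mm, in 1 contrast of the same fit. It called 209 genes higher (0.801% of those tested) and 205 lower (0.786%). This contrast shares the libraries of 1.6 and 1.8 mm with the step, so its values are given on their own.

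Of the 209 genes higher at 1.8 mm, 196 had a mean above both neighbours, against 6911 of all 26091 tested genes. The median level of the 209 was 9.37 FPKM at 0.4 mm and 1.15 FPKM at 1.4 mm. It was 3.89 FPKM at 1.6 mm, 10.9 FPKM at 1.8 mm and 1.67 FPKM at 2.0 mm, and ended at 0.822 FPKM at 2.5 mm. The medians by library were 4.42, 3.46 and 3.1 FPKM at 1.6 mm, 13, 11.3 and 8.02 FPKM at 1.8 mm and 1.38, 1.35 and 2.01 FPKM at 2.0 mm. These libraries chose the genes, so the separation of 1.8 mm is a description. For 84 of the 209 genes, 1.8 mm was the highest of all 10 lengths, and for 93 the mean was higher at 0.4 than at 1.8 mm. Over all 26091 tested genes these counts were 1854 and 14660. The share higher at 0.4 mm was thus smaller in this set than over all tested genes. Between 0.4 and 1.4 mm, 130 of the 209 (62.2%) had fallen and 20 had risen, against the 18.5% and 11.0% given above. The libraries of 0.4 and 1.4 mm took no part in choosing this set other than through the shared estimate of the spread.

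This contrast moved less than the step with the S number, which is partly built in. Of its lengths, only the shorter neighbour has libraries with S22 or above, and it enters as part of a mean. The term thus has less weight here than in the step, so the counts cannot show which calls are sturdier. With the term for S22 or above, 167 genes were higher, 151 of them among the 209, and 184 were lower, 168 of them among the 205. Without 1.8 mm replicate 1 the counts were 124 higher and 133 lower.

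The 205 genes lower at 1.8 mm than the mean of its neighbours were mostly not genes that dipped. Their means at 2.0 mm were higher than at 1.8 mm in 204 cases, and in 48 the mean at 1.8 mm was below both neighbours. Over all 26091 tested genes these counts were 11838 and 5357. The libraries of 2.0 mm helped to choose the set, so its high levels there are partly built in. The median level was 0.231 FPKM at 1.6 mm and 0.71 FPKM at 1.8 mm, against 20.9 FPKM at 2.0 mm and 92.2 FPKM at 2.5 mm, and 163 genes were at least 10 times higher at 2.0 than at 1.6 mm. Over all tested genes, 1040 were at least 10 times higher at 2.0 than at 1.6 mm and 3042 were highest at 2.5 mm. Of the 205, the highest of the 10 lengths was 2.5 mm for 165. At 1.8 mm the medians by library were 0.241, 0.483 and 1.41 FPKM, so replicate 3 was the highest, and all were below the 17.8, 26.5 and 12.2 FPKM of 2.0 mm. Together they held 1.2% to 2.76% of the FPKM of a library at 2.0 mm, and 0.0561% to 0.145% at 1.8 mm. When genes were filtered on the 6 libraries of the step alone, 58 genes were called lower, all of them among the 205. The filter on 30 libraries also counts 2.0 and 2.5 mm, where this set was high. At 1.6 and 1.8 mm its median was below the 1 FPKM of the filter. How many of the 205 were tested under the filter on 6 libraries was not counted.

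**Figure D4:**
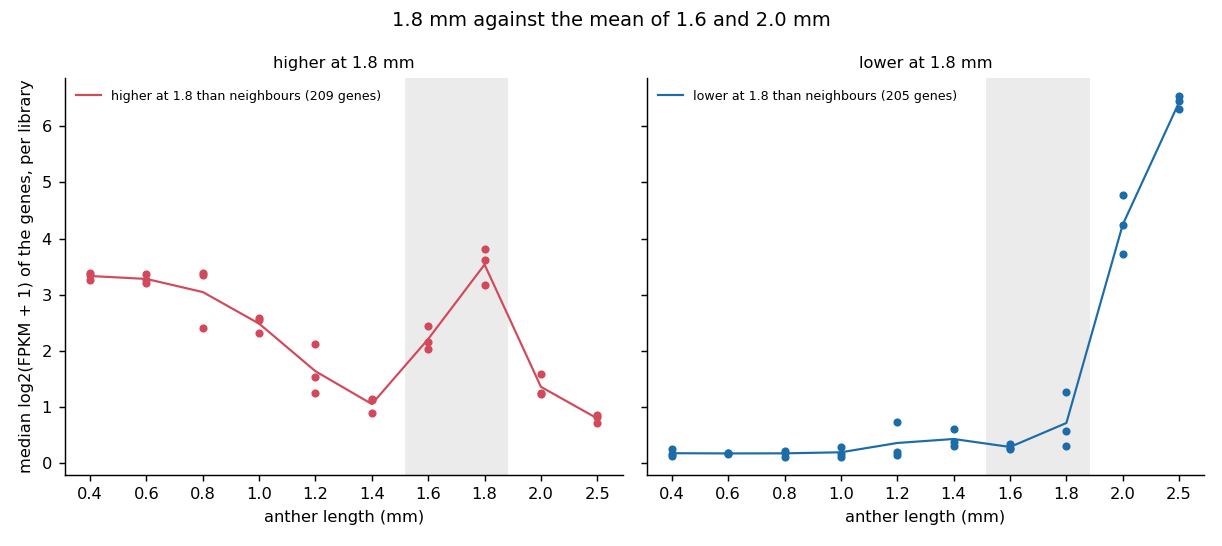
Median log2(FPKM + 1) in each library (y axis) against anther length, with lengths equally spaced (x axis), for the 209 genes higher (left) and the 205 genes lower (right) at 1.8 mm than the mean of 1.6 and 2.0 mm. Points are libraries and lines join the means of 3. The left set peaks again at 1.8 mm after its low at 1.4 mm, and the right set is low up to 1.8 mm and climbs at 2.0 and 2.5 mm.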

How the data were processed

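The authors deposited FPKM per transcript entry, 48494 entries in each library that carry a gene ID and no transcript name, so isoforms could not be traced; the values were summed per gene ID (28505 of 35594 IDs had 1 entry). The submitters' processing notes name HISAT2 2.1.1 and StringTie 2.1.4. Depth is unknown, so no counting interval is given, and FPKM of genes that share reads with near-identical copies are uncertain. Groups and replicate numbers come from the sample titles. The series' design calls the 3 replicates of a length biological; which plants they came from is not said. log2(FPKM + 1) was fitted in limma 3.58.1 (R 4.3.3; lmFit, eBayes with trend) with the 10 lengths as 1 factor over all 30 mRNA libraries, which share 1 estimate of the spread. Fold changes on this scale understate those of low genes. The fit was tested on simulated data with 200 changed genes. Because IDs have no names, 4 genes were named, the 2 that rose most and the 2 that fell most of the called genes whose groups did not overlap and whose higher group had a mean of 10 FPKM or more. The genes, lists and comparisons were chosen with earlier results of these data known; the comparison of 1.4 with 0.4 mm, the early, middle and late classes, the joint filter and fit on 6 libraries, and the random block were added after seeing the data. Small RNA was not analysed here.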

Additional observations from a re-analysis of the deposited data

How the results depend on the processing

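From 1.6 to 1.8 mm, 293 genes were called (183 higher, 110 lower). A pseudocount of 0.1 gave 122 (73 and 49), of which 101 were among the 293. The term for S22 or above gave 56 (31 and 25). A fit on the 6 libraries alone gave 45 (6 and 39), with 5713 genes at an unadjusted p under 0.05 against 2739 in the fit on 30. With genes also filtered on these 6 libraries, an alternative added after seeing the data, it gave 493 (277 and 216). The cause was not tested. Leaving out each library in turn gave 99 to 301 calls, 58 to 199 higher and 39 to 118 lower. No filter, the filter on 6 libraries, TPM, quantile normalization, adjusted p alone and the plain number in the name as a random block gave 239 to 368. The genes among the 293 that were tested kept their direction in every alternative listed here. Adjusted p alone, no filter and the filters and fits on 6 libraries leave the fold changes as they were, so direction is fixed there. In the others it is partly built in, since the genes were chosen for a large change in the same data. For 1.8 mm against its neighbours, the filter on 6 libraries gave 263 calls (58 lower), adjusted p alone 636 (345 lower), and leaving out each library 257 to 440 (124 to 226 higher, 133 to 220 lower). The fit on 6 libraries could not be run for this contrast, which needs 2.0 mm. Between 2.0 and 1.4 mm the 8016 calls became 7975 to 10104.

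Same-numbered replicates of 1.6 and 1.8 mm had correlations of their deviations of -0.01, -0.06 and 0.17, and those of 1.8 and 2.0 mm, which also share their plain number in the name, of 0.291, 0.099 and -0.101. Not every pair was above 0.1 in either case, so the replicate numbers were not taken as pairs. With the replicate block the step had 280 calls (176 higher, 104 lower), the neighbour contrast 412 and 2.0 against 1.4 mm 8025.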
